A study of Homo sapiens with 6 samples.

Results

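Olfactory receptor genes on the autosomes other than chromosome 11 were followed through 4 genome-wide maps of H3K9me3, the trimethylated histone H3 lysine 9 that marks heterochromatin. The members were the protein-coding genes of GENCODE 44 on hg38 that lie on chromosomes 1 to 10 and 12 to 22 and carry a symbol made of OR, a number, letters and a number. The rule found 227 genes among the 17794 protein-coding genes of those chromosomes, and 16 of the chromosomes held at least 1 of them. A gene was counted as in a domain when its transcription start lay inside an H3K9me3 domain of a library. Of the 227 genes, 54 (23.8%) were in a domain in each of the 4 libraries, and they were the same 54 genes every time. The other 173 were outside domains in all 4 libraries.

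Olfactory receptors are G protein-coupled receptors that bind odorants at the surface of olfactory sensory neurons and signal through the G protein subunit encoded by GNAL and the cyclase encoded by ADCY3. The genes are mostly short, with the coding sequence in a single exon, and they sit in tandem clusters on many chromosomes. Each olfactory neuron transcribes 1 allele of 1 receptor gene, while the others are held in chromatin that carries H3K9me3. Outside the olfactory epithelium most of the genes are silent.

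The maps came from MCF10.DCIS.com, a human breast epithelial line that carries oncogenic RAS and models ductal carcinoma in situ. Control monolayers held the empty pSLIK-neo lentiviral vector and RAB5A monolayers held the same vector with inducible RAB5A, an endosomal GTPase used in the study to set jammed monolayers in motion. Both were stable, antibiotic-selected lines, and the labels give no induction time for the immunoprecipitations. In each condition 1 library was made with the antibody ab176916 (replicate 1) and 1 with ab8898 (replicate 2), so n = 2 per condition and the replicates differ in antibody. The 2 input libraries were not analysed here. The labels do not say whether the 2 libraries of a condition came from separate cultures.

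A domain is a broad run of 200 kb bins in which the immunoprecipitate exceeded input, called by the authors in each library separately with EDD. On the chromosomes studied here the 4 lists held 65, 63, 66 and 64 domains that covered 187.6, 183.0, 188.6 and 185.8 Mb, with the control libraries first and ab176916 before ab8898 in each condition. This order holds wherever 4 values follow each other below. The lists give positions and a score but no reads, so the depth behind each call is unknown, no counting error can be given, and the identity of the cells could not be checked against marker genes.

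Promoters of receptor genes in and out of domains are shown first, to let the sequences around their starts be compared. These stretches, 250 bases before to 50 bases after the start in RefSeq on GRCh38.p14, belong to the first gene of each of the largest in-domain clusters and to 1 gene of a large outside cluster on the same chromosome. OR2B11 opens the chromosome 1 cluster that lies in a domain, and its promoter spans chr1:247457959-247458258 on the minus strand. OR10T2 opens a chromosome 1 cluster outside domains (chr1:158399417-158399716, minus strand). OR2Z1 opens the in-domain cluster of chromosome 19 (chr19:8721384-8721683, plus strand), and OR7A5 opens the outside cluster of that chromosome (chr19:14835136-14835435, minus strand). All are printed 5′ to 3′ on the gene's own strand, and capitals mark matches on either strand to the homeodomain word TAATTA, the TATA box word TATAAA or the EBF core word CCCNNGGG, which were searched for in every promoter.
OR2B11, in a domain: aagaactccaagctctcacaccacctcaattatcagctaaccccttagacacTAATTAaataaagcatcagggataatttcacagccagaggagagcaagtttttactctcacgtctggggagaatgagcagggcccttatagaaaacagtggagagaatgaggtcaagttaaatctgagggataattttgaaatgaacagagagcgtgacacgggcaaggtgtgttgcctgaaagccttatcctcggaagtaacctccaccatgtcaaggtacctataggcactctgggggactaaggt
OR10T2, outside: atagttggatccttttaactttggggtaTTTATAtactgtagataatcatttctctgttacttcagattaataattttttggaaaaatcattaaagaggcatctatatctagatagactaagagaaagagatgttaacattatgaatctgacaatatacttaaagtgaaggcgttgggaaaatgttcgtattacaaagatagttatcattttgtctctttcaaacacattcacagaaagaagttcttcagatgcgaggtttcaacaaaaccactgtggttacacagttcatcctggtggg
OR2Z1, in a domain: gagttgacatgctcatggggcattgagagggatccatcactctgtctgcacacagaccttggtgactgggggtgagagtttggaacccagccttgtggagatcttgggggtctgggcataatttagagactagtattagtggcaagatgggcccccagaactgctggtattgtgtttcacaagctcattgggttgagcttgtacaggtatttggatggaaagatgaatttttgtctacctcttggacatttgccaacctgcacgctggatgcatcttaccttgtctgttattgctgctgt
OR7A5, outside: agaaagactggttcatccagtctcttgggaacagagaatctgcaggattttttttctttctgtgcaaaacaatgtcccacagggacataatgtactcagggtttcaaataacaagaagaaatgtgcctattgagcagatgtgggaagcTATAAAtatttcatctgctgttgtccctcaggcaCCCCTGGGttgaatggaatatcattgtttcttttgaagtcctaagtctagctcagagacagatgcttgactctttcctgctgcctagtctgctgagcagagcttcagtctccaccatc
The OR2B11 promoter had a G and C content of 45.3% with 4 CpG dinucleotides, and that of OR10T2 had 32.3% with 3. The OR2Z1 promoter had 48.3% with 1 CpG, and that of OR7A5 had 43.3% with 0. Among these 4, chosen by position, the in-domain pair had the higher G and C content, whereas the CpG counts overlapped. Over all matched promoters the medians of both states lay close together, as given further on.

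The in-domain genes lay in 4 of the 31 clusters formed by joining neighbouring starts up to 1 Mb apart. Each of the 4 clusters was wholly inside a domain, each of the other 27 was wholly outside, and no domain edge cut through a cluster. The clusters held 43 genes on chromosome 1, 8 on chromosome 19, 2 on chromosome 15 and 1 on chromosome 8. Across all protein-coding genes of the same chromosomes, 4.28%, 4.63%, 4.33% and 4.59% had their start in a domain in the 4 libraries, and 4.07% (725 genes) did so in all of them. The receptor share exceeded that background by 19.3 percentage points on average (19.2 to 19.5 over the 4 libraries). Receptor genes were 1.28% of the protein-coding genes but 7.45% of those in a domain in every library. Neighbours in a cluster share a domain and are not independent, so the observation behind these shares is 4 clusters, not 54 genes. The chromosome 1 cluster decided most of the excess. Without it, 11 of 184 genes (5.98%) were in domains and the excess was 1.52 percentage points, a comparison chosen after the values were seen. The background of 17794 genes was kept whole there and still held the genes of the cluster.

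**Figure D1:**
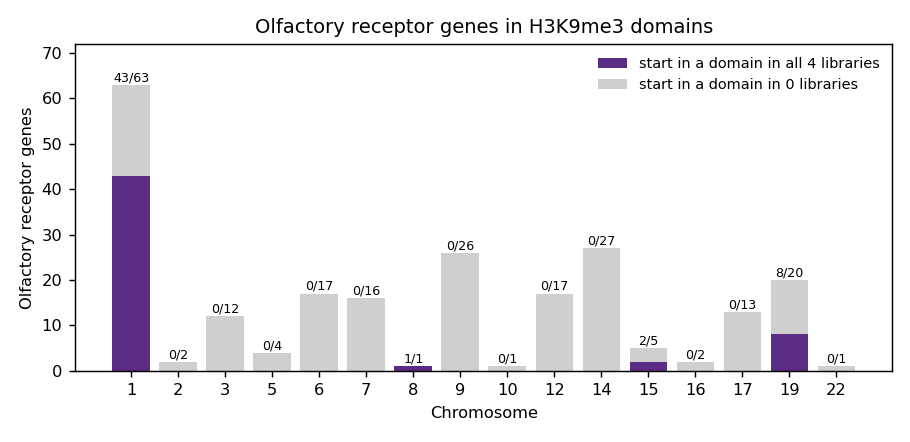
Number of olfactory receptor genes on each chromosome, with those whose start lay in a domain in all 4 libraries in purple and those in a domain in 0 libraries in grey. Chromosome 1 holds 43 in-domain genes of 63, chromosome 19 holds 8 of 20, and 12 of the 16 chromosomes hold none.

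**Figure D2:**
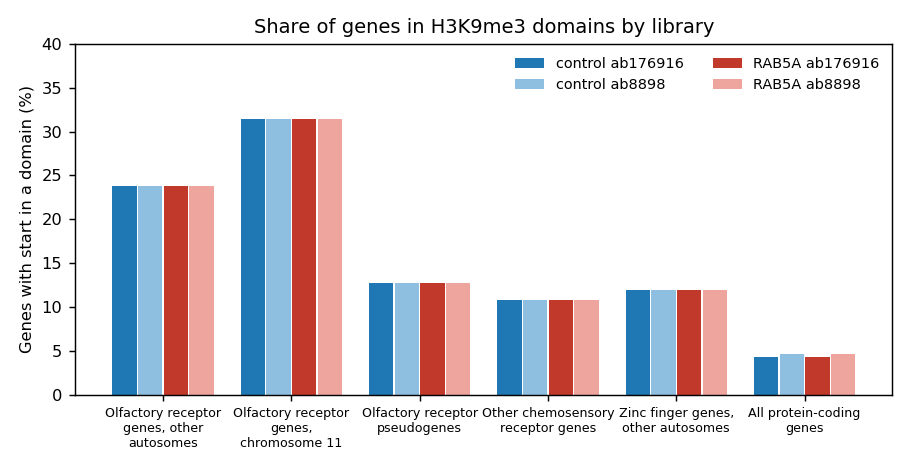
Percentage of genes with the start in a domain, in each library (blue, control; red, RAB5A; dark, ab176916; pale, ab8898), for the receptor genes, other gene lists and all protein-coding genes of the same chromosomes. The 4 bars for the receptor genes stand at the same height of 23.8%, and those for all protein-coding genes between 4.28% and 4.63%.

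The large chromosome 1 cluster ran from OR2B11 (start 247458105) to OR14I1 (start 248682328), a span of 1.22 Mb close to the end of the long arm. Its 43 genes, 25 on the plus and 18 on the minus strand, belonged to 6 families and made up 89.6% of the 48 protein-coding genes in the span. All 4 libraries placed it in an identical domain, chr1:246600001-248800000, 2.2 Mb long. The first gene, OR2B11, started 0.858 Mb inside the left edge and the last, OR14I1, 0.118 Mb inside the right edge, which is less than 1 bin. The domain held 60 protein-coding genes, of which the receptors were 71.7%, and 11 olfactory receptor pseudogenes. Of the other 17, 5 were zinc finger genes, a family of transcription factors often found in H3K9me3 (ZNF695, ZNF670, ZNF669, ZNF124 and ZNF496), and 12 were others. Counted as others were the readthrough gene ZNF670-ZNF695 and OR14L1P and OR9H1P, whose suffixed symbols the rule leaves out. The others also included VN1R5, a vomeronasal-type receptor, NLRP3, the sensor of an inflammasome, and AHCTF1, a nucleoporin.

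Whole subfamilies were gathered in this domain. OR2T had 16 of 16 genes in a domain, OR2L 5 of 5, OR2M 5 of 5 and OR2G 3 of 3, all of them on chromosome 1. The remaining chromosome 1 receptors were outside. These were 17 genes from OR10T2 to OR10J5, 87.1 Mb from the nearest domain in every library, and 3 genes at the tip of the short arm, OR4F5 to OR4F16, whose nearest member OR4F16 was 3.11 Mb away. The OR10T2 cluster, at 1.14 Mb, is almost as long as the in-domain one and its receptors made up 65.4% of the 26 protein-coding genes in the span. No zinc finger gene started within 500 kb of it, among 45 protein-coding genes, against 7 among 62 around the in-domain cluster.

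On chromosome 19 the in-domain cluster ran from OR2Z1 (start 8721634) to OR7E24 over 0.526 Mb, and its 8 genes lay in chr19:8600001-9800000, the same 1.2 Mb domain in all 4 libraries. OR2Z1 started 0.122 Mb inside the left edge and OR7E24 0.553 Mb inside the right edge. Zinc finger genes outnumbered the receptors there, at 12 of 26 protein-coding genes against 8, with 8 receptor pseudogenes beside them. The other 6 counted the readthrough gene ZNF559-ZNF177 and included MUC16, which encodes a large membrane mucin, ADAMTS10, a secreted metalloprotease, and ACTL9, an actin-like gene. OR7D4, the receptor for the steroid odorants androstenone and androstadienone, was among the 8 and is named here for its known ligand, after its values were seen. The other large cluster of the chromosome, 11 genes from OR7A5 to OR10H4, was outside in every library, with OR7A5 2.04 Mb from the nearest domain. Within 500 kb, zinc fingers were 12 of 37 protein-coding genes around the in-domain cluster and 1 of 49 around the outside one. On chromosome 19 a domain is a common place for a gene, since 381 of its 1476 protein-coding genes (25.8%) were in one in all 4 libraries. Of its 20 receptor genes 8 were.

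The other in-domain clusters were small, and their domains had edges that differed among the libraries. OR4M2 (start 22070241) and OR4N4 (start 22094522) lay on chromosome 15 in a domain that started at 20000001 in every list and ended at 22400000 with ab176916 and at 22600000 with ab8898, in both conditions. That domain held 10 or 11 protein-coding genes, POTEB, POTEB2, POTEB3 and GOLGA6L6 among them, and 9 receptor pseudogenes. The protein-coding genes also included OR4M2B, OR4N4C and OR4M2-OT1, whose suffixed symbols the rule leaves out. OR4F21 was alone on chromosome 8, with its start at position 167024, in a domain that began at the chromosome end. The domain was 1.8 Mb long in 3 lists and 6.2 Mb in the control ab8898 list, with 8 and 12 protein-coding genes.

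**Figure D3:**
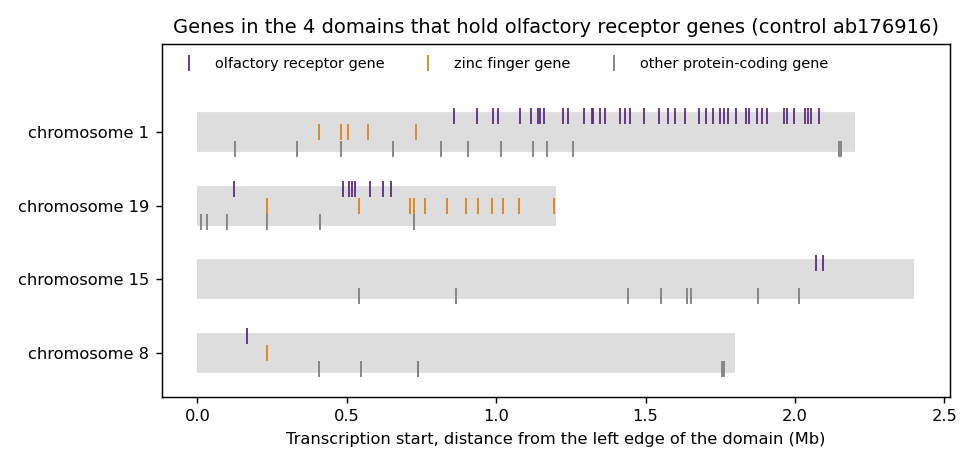
Transcription starts of olfactory receptor genes (purple), zinc finger genes (orange) and other protein-coding genes (grey) along the 4 domains that hold receptor genes in the control ab176916 list, as distance from the left domain edge in Mb. The chromosome 1 domain has 43 receptor starts packed in its right part, and the chromosome 19 domain has 12 zinc finger starts and 8 receptor starts.

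The score that the authors' caller gave each domain was low for the domains with most receptors. The chromosome 1 domain scored 7.88, 8.89, 8.08 and 8.70 and ranked 4th from the lowest of 78 domains, 1st of 76, 8th of 79 and 4th of 76. The chromosome 19 domain scored 8.24, 9.93, 8.35 and 9.57 and ranked 7th, 10th, 11th and 11th. Both were below the lower quartile of their list, which stood at 9.68, 10.7, 9.34 and 10.2. The chromosome 15 domain was nearer the middle, at 11.5, 13.8, 11.4 and 12.7, against list medians of 13.2, 14.5, 13.3 and 14.4. The chromosome 8 domain scored 10.03, 31.9, 10.003 and 12.1, and its high value came in the list in which it was longest. The score has no stated unit, and EDD sums it over bins, so length enters it. Divided by the number of bins, the chromosome 19 domain had 1.37, 1.66, 1.39 and 1.60 and ranked 66th, 65th, 66th and 67th from the lowest, in the upper part of each list, whereas the chromosome 1 domain stayed low, ranking 10th or 11th. When domains below the lower quartile of their list were left out, 3 receptor genes (1.32%) in 2 clusters remained in all 4 libraries, those of chromosomes 15 and 8, and the difference from the background turned to −2.03 percentage points. The chromosome 1 domain, which carried most of the excess, is among those left out by this filter, although it was called with identical edges in all 4 libraries. Leaving out chromosome 19 instead gave an excess of 19.8 percentage points.

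**Figure D4:**
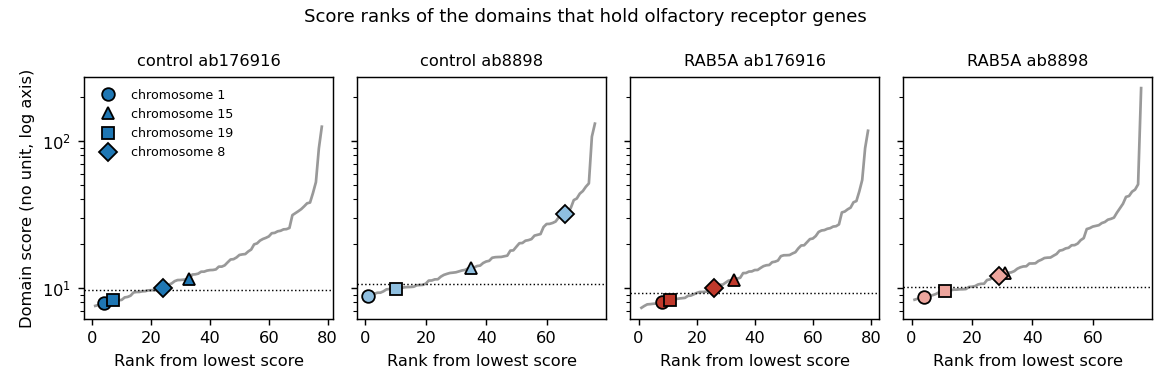
Domain score (no unit, log axis) against its rank from the lowest, for every domain of each library (grey line), with the domains that hold receptor genes as symbols and the lower quartile of the list as a dotted line. The chromosome 1 and chromosome 19 domains lie below the quartile line in all 4 panels.

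The 27 clusters outside domains were spread over 15 chromosomes, with the nearest gene of each 1.14 to 140.04 Mb from a domain. No member outside lay within 1 Mb of a domain in any library. Of the 173 genes outside, 31 were within 5 Mb in every list and 83 were over 20 Mb away in every list in which their chromosome held a domain. The nearest were on chromosomes 5, 16, 14 and 19. OR2Y1, on chromosome 5, was 1.14 Mb from a domain in all 4 lists, and OR2C1, on chromosome 16, 1.64 Mb. OR7A5 at 2.04 Mb, OR11H1 on chromosome 22 at 2.73 Mb and OR4F16 on chromosome 1 at 3.11 Mb likewise had the same distance in every list. On chromosome 17, OR1E2, of a cluster of 11, was 6.37, 6.17, 6.37 and 6.37 Mb away. On chromosome 7, OR2A1, the last gene of a cluster of 14, was 7.89 Mb away in 3 lists and 8.49 Mb in the RAB5A ab8898 list.

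The most distant genes were on chromosome 6, in and near the major histocompatibility complex region. OR2B2, OR2B6 and OR2W1 were 140.1, 140.04 and 139.0 Mb from the only chromosome 6 domain, and OR2H2, the nearest gene of the cluster of 14 that OR2W1 opens, was 138.4 Mb away. These distances exist in 3 lists, since the control ab8898 list has no domain on chromosome 6, so the 17 chromosome 6 members have no distance there. The pair OR2B2 and OR2B6 had 11 zinc finger genes among the 34 protein-coding genes within 500 kb and lay outside. The same held for OR1F1 and OR2C1 on chromosome 16, with 9 of 45, and for OR2AE1 on chromosome 7, with 8 of 42. Around the small in-domain clusters zinc fingers were 0 of 7 (OR4M2 and OR4N4) and 1 of 4 (OR4F21). The part of zinc finger neighbours in the calls was not tested.

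Among the other clusters of 3 genes or more, OR5AC1 on chromosome 3, of 12 genes, was 93.7, 93.7, 70.9 and 93.7 Mb away. OR10P1, of a cluster of 15 genes on chromosome 12 that includes the OR6C subfamily (0 of 11 in a domain), was 58.4 Mb away in 3 lists and 62.8 Mb in the RAB5A ab8898 list. On chromosome 9, OR1K1 was 11.6 Mb away and OR13D1 29.7 Mb in every list, and OR13J1 was 25.9 Mb away in 3 lists and 26.1 Mb in the RAB5A ab176916 list. OR4F6, at the far end of chromosome 15 from the in-domain pair, was 53.8 Mb away in 3 lists and 72.2 Mb in the RAB5A ab8898 list. Distances of this size say which domains a list holds elsewhere on the chromosome rather than anything about the neighbourhood of the gene. Of the 10 clusters with 10 or more genes, 1 was in a domain.

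**Figure D5:**
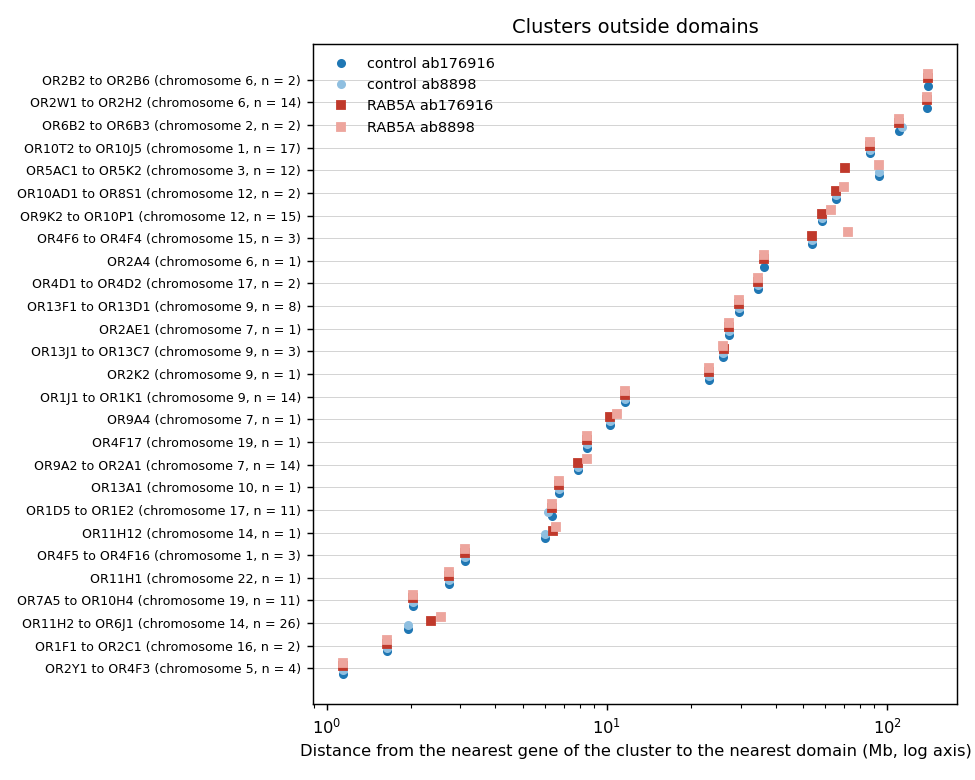
Distance from the nearest gene of each outside cluster to the nearest domain (Mb, log axis), with 1 symbol per library (circles, control; squares, RAB5A). The symbols of 16 clusters overlie each other, and those of the chromosome 14 clusters are shifted to longer distances in both RAB5A libraries.

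Control and RAB5A were then compared, to ask whether the change from a jammed to a moving monolayer was accompanied by a change in which receptor genes lie in domains. The number of receptor genes in domains was 54 and 54 in the control libraries and 54 and 54 in the RAB5A libraries, a difference of 0 ± 0 (two-sided exact permutation of the 6 possible labellings, p = 1). No receptor gene changed state. Among all protein-coding genes of these chromosomes, 0.0618% (11 genes) were in domains in both libraries of 1 condition and neither of the other, 3 in control and 8 in RAB5A. For the antibodies the share was 0.259% (46 genes, 43 of them with ab8898), and 0.691% (123 genes) differed in any way among the 4 libraries. A count of 0 members is near these backgrounds and is not a result about the receptor genes. A change in the amount of H3K9me3 inside a domain would not be visible in the lists.

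The distances to domains were compared in the same way. Over the 210 members with a distance in all lists, the median was 6.41 and 6.21 Mb in control (6.31 ± 0.141, SD, n = 2) and 6.41 and 6.46 Mb in RAB5A (6.43 ± 0.0354). The 2 libraries of a condition differ in antibody, so each SD holds any antibody difference and is not replicate spread alone. The difference between conditions was 0.125 Mb (two-sided exact permutation, p = 0.667, with 0.33 as the lowest p that 4 libraries can give). Within the antibodies it was 0 Mb (ab176916) and 0.250 Mb (ab8898), and it was 11.2 Mb (exact permutation, p = 0.33) once domains below the lower quartile of the score were left out. The chromosome 14 genes were the only members farther from a domain in both RAB5A libraries than in both control libraries. OR6J1, the nearest of the 26 genes from OR11H2 to OR6J1, was 1.96 and 1.96 Mb from a domain in control and 2.36 and 2.56 Mb in RAB5A, so the groups did not overlap and the mean difference was 0.5 Mb (exact p = 0.33, the smallest this design allows). OR11H12, alone on the proximal side, was farther by the same amounts, at 6.40 and 6.60 Mb in RAB5A.

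All 27 chromosome 14 members measure a single edge. The left edge of 1 domain stood at 24600001 in both control lists, at 25000001 in the RAB5A ab176916 list and at 25200001 in the RAB5A ab8898 list, a shift of 2 and 3 bins. The 27 genes were 12.9% of the 210 compared, where 1.53% of all 15986 protein-coding genes with a distance were farther in both RAB5A libraries, and 155 of those genes were on chromosome 14 as well. Nearer in both RAB5A libraries were 0 members, against 8.08% of all such genes. As 1 edge decides the first count, nothing about receptor genes in general is read from either share. The cluster itself stayed at least 1.96 Mb outside domains in each condition.

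Membership of a family did not fix the state of a gene. Of the 14 families among the members, 8 had a gene in a domain, 6 (families 3, 5, 8, 9, 10 and 12) had none, and none was wholly inside. Family 2 had 35 of 63 genes in domains, family 14 had 5 of 6 and family 7 had 6 of 11, whereas family 4 had 3 of 29, family 1 had 2 of 25, family 6 had 1 of 25 and family 10 had 0 of 22. These counts repeat the clusters, since family 2 fills most of the chromosome 1 domain and the family 7 genes in domains are all in the chromosome 19 one. OR14J1, the family 14 member on chromosome 6, was 138.7 Mb from a domain while the 5 others were in the chromosome 1 domain.

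Some close relatives on different chromosomes were in different states. OR4F21, in a domain on chromosome 8, had 99.7% identity over the coding sequence to OR4F16 and OR4F29 on chromosome 1 and OR4F3 on chromosome 5, which are identical to each other and outside domains. OR4M2, in a domain on chromosome 15, was 97.2% identical to OR4M1 on chromosome 14, which was outside, and OR4N4, beside OR4M2, was 88.9% identical to OR4N2, which lies outside on chromosome 14. Altogether 10 of the 54 in-domain genes had a closest relative outside domains and 12 of the 173 outside genes had one inside. Protein-coding genes with suffixed symbols were not among the sequences compared. OR4M2B and OR4N4C, in the chromosome 15 domain in all 4 libraries, are such genes. Closer relatives of OR4M2 and OR4N4 in the same domain could therefore have been missed. The authors removed reads of the lowest mapping quality, which BWA gives to reads that fit several places equally well, so reads from stretches identical between copies would mostly have been removed before calling. Among the sequences compared, 16 members had a copy of 99% identity or more (7 in domains, 9 outside). Their part in the calls was not tested. The pairs OR2T2 and OR2T35 (99.4%), OR2T29 and OR2T5 (99.8%), and OR2T3 and OR2T34 (99.4%) lie in the same domain.

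Properties of the genes that the rule did not use were set side by side for both states. The closest coding identity had a median of 77.1% in domains (59.8 to 99.8) and 78.3% outside (59.6 to 100). The coding length had a median of 942 bases against 939, and 224 of all 227 genes had 1 coding exon. The G and C content of the 200 kb bin around each start had a median over genes of 37.9% in domains (36.8 to 47.9, 12 distinct bins). Outside it was 39.5% (35.04 to 54.7, 65 distinct bins). A bin with several genes enters these medians once per gene. They are therefore not compared with the median of 39.9% over all 13176 bins of these chromosomes, each counted once. The median gene length was 6.11 kb in domains and 3.08 kb outside. Of the 54 in-domain genes, 43 lie in the chromosome 1 cluster, so the in-domain medians mostly describe that cluster. Closeness to a chromosome end was counted for the members only. The share of all protein-coding genes near an end that lie in domains was not computed, so no difference between the states is read from it. Of the 40 members within 1 Mb of an end, 29 were in domains, 28 of them in the chromosome 1 cluster and the other being OR4F21. Members near an end but outside domains were OR4F genes for the most part, such as OR4F17 at 0.107 Mb from the end of chromosome 19, 8.49 Mb from a domain.

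A promoter in the RefSeq table was found for 172 of the 227 genes, 42 in domains and 130 outside. For 6 genes the RefSeq start lay over 1 kb from the start used for the domain call, by 158 kb for OR2L13. Their promoters were kept in the values that follow. As a class the 172 promoters were poor in G and C. The median was 37.8% in domains and 38.3% outside, against 63.0% for 13680 protein-coding genes of the same chromosomes. The receptor promoters held a median of 2 CpG dinucleotides in domains and 1 outside, against 23. TAATTA, a core that homeodomain factors such as LHX2 bind, was present on either strand in 23.8% of in-domain and 21.5% of outside promoters, against 3.15% of protein-coding promoters and 4.84% of all 35116 promoters in the table. TATAAA, the TATA box word, was in 42.9% and 31.5%, against 9.50% and 11.5%. CCCNNGGG, the core of the sites of the EBF factors, was in 14.3% (6 promoters) and 6.15% (8 promoters), against 22.1% and 19.1%. The base composition moved with these words, and its part in the shares was not tested. A match is a string of letters, not a bound site. For TAATTA and TATAAA both receptor shares were above those of other promoters. For CCCNNGGG both were below. The in-domain and outside shares of that word rest on 6 and 8 promoters. Of the 54 in-domain genes, 43 are neighbours in the chromosome 1 cluster and not independent. No difference between the 2 states is therefore read from these word shares.

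Counts for related gene lists are set beside the 4.28% to 4.63% of all protein-coding genes in domains on the member chromosomes. That range is not matched to each list, and pseudogenes are not part of it. For genes on chromosome 19 the share of all protein-coding genes in a domain in all 4 libraries was 25.8%. The 235 olfactory receptor pseudogenes of the same chromosomes had 30 (12.8%) in domains, the same in all 4 libraries, with 11 of 31 on chromosome 1, 9 of 14 on chromosome 15, 9 of 21 on chromosome 19 and 1 of 18 on chromosome 14. On chromosome 11, 54 of 172 receptor genes (31.4%) were in domains in each library, where 5.32% of all protein-coding genes of that chromosome were. Of 37 taste, trace amine and vomeronasal-type receptor genes on autosomes 4 (10.8%) were in domains, all of them VN1R genes, with VN1R5 in the chromosome 1 receptor domain and VN1R1, VN1R2 and VN1R4 on chromosome 19. Zinc finger genes had 187 to 191 of 240 in domains on chromosome 19 (77.9% to 79.6%) and 27 of 226 (11.9%) on all other autosomes.

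Genes that carry the odorant signal or govern receptor choice were counted too, at 8.70% of 23 and at 7.69% to 11.5% of 26 in domains, against the same 4.28% to 4.63%, which leaves out chromosomes 11 and X. Of the 23 odorant signalling genes, NCAM2, an adhesion molecule of olfactory axons on chromosome 21, and CNGA2, the X-linked subunit of the olfactory cation channel, were in domains in all 4 libraries. The G protein gene GNAL was 4.09, 4.29, 4.29 and 4.29 Mb away, and OMP, the olfactory marker protein gene, 20.5 Mb. Of the 26 genes for receptor choice and H3K9 methylation, EBF3, a transcription factor of the EBF family, and SUV39H1, an X-linked H3K9 methyltransferase, were in domains in all 4 libraries. TRIM28, the corepressor that recruits SETDB1 to zinc finger targets, was in a domain in both ab8898 libraries and 0.144 Mb outside in both ab176916 libraries, so its state followed the antibody and not the condition. LHX2 was 10.4 Mb and SETDB1 95.7 Mb from a domain in every list.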

How the data were processed

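Per the submitters' processing notes and the study's methods, the authors trimmed reads with Trimmomatic (0.39), aligned them to hg38 with BWA (0.7.17-r1188), marked duplicates with Picard (2.22), filtered on mapping quality with SAMtools (1.9) and called domains per library, without pooling, with EDD against input in bins of 200 kb. The deposited score of each domain has no unit and was used only to rank or filter domains within a list. Edges are exact to 1 bin at best. The deposited lists hold no reads, so depth and counting error are unknown.

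Starts were taken from GENCODE 44 as the outermost 5′ end of each gene, with distance 0 inside a domain. Distances are missing where a list has no domain on the chromosome. A total of 10 protein-coding symbols with a suffix were left out by the symbol rule. Coding identity was computed between each member and every other protein-coding gene that meets the symbol rule, on any chromosome. Python 3.11.15, NumPy 2.4.6, SciPy 1.17.1 and pandas 2.3.3 were used, and the counting and permutation steps were tested on simulated data. Conditions were compared by exact two-sided permutation over the 4 libraries (smallest p 0.33), so p-values measure only the spread between them.

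Replicate numbers name the antibody, per the labels. As a check of the pairing, calls were centred on their condition mean over the 1017 bins that any list held, and these residuals had a Pearson's r of 0.327 between same-antibody libraries. Pairing by antibody was then used in an alternative. The members and lists were chosen with earlier results of these data known. Genes named are the first and last of each in-domain cluster, lone in-domain genes, the nearest gene of each outside cluster of 3 or more and the 3 farthest genes. Others were named after their values were seen.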

Additional observations from a re-analysis of the deposited data

How the results depend on the processing

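The count of 54 receptor genes in domains in every library, the absence of genes specific to a condition and the 4 in-domain clusters kept their values when either replicate number, that is 1 antibody in both conditions, was left out. Single libraries were not left out. Leaving out 1 replicate number at a time gave an excess over the background of 19.2 to 19.5 percentage points, a share of 23.8% throughout and a difference in median distance of 0 to 0.250 Mb. With the replicate block, pairing libraries by antibody, the differences between conditions stayed at 0 genes and 0.125 Mb (exact sign-flip test, p = 1 for both, where 2 pairs cannot go below 0.5), and it changed no call. Only the domains at or above the lower quartile of the score gave an excess of the opposite sign, −2.03 percentage points, with a share of 1.32%, 3 genes in all 4 libraries and 2 clusters, and with them the difference in median distance was 11.2 Mb (exact permutation, p = 0.33). With missing distances treated in other ways that difference was 0.264 and 0.0104 Mb. Counting pseudogenes too gave a share of 18.2%, an excess of 13.7, 84 genes in all 4 libraries and 7 clusters. Without chromosome 19 the share was 22.2% and the excess 19.8, without the largest cluster of chromosome 1 they were 5.98% and 1.52 with 11 genes, and with suffixed symbols added they were 24.9% and 20.4. Chromosome 19 was left out of the background too (16318 genes), whereas the chromosome 1 cluster stayed in it (17794 genes). The excess was 19.2 (19.1507 before rounding) with any base of the gene in a domain and 17.8 with starts within 200 kb of a domain. The alternatives on the chromosome 1 cluster and the suffixed symbols were chosen after seeing the data. Of 89 values under alternatives, 72 were labelled the same, 16 moved and 1 reversed, by limits that are not given here. The difference of 11.2 Mb in median distance was labelled the same, so that label does not mean a small change. A resolution of 200 kb and unknown depth limit every position and call.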
